A study of Mus musculus with 12 samples.

Results

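The genes described here are 10 components of the Toll-like receptor (TLR) system of the B lymphocyte, chosen by symbol from the 24982 genes listed in the files: the receptors Tlr1, Tlr2, Tlr4, Tlr6, Tlr7 and Tlr9, the receptor-like gene Cd180 with its partner Ly86, the chaperone Unc93b1 and the adaptor Myd88. All 10 were listed and all 10 passed the filter on low values in every comparison. Polyadenylated RNA was sequenced from B lymphocytes that had been isolated from spleens of mice 6 weeks old. There were 3 genotypes with 4 libraries each: WT (C57BL/J6), Eμ-Myc, and Eμ-Myc; PRPS2 KO, called the knockout group below. The Eμ-Myc transgene puts Myc under the immunoglobulin heavy-chain enhancer and so drives it in the B lineage, and the knockout group carries the same transgene, so it has no counterpart here that lacks PRPS2 without the transgene. PRPS2 is an isoform of phosphoribosyl pyrophosphate synthetase, which makes the sugar phosphate used in nucleotide synthesis. The labels call the libraries biological replicates but do not say whether each came from 1 mouse or what sex the mice were. They also do not say whether tumours were present or whether the deletion is confined to a tissue. The p-values therefore compare group differences with the spread between these libraries, which may differ from that between mice.

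Toll-like receptors bind conserved molecules of microbes. TLR2 acts at the cell surface together with TLR1 or TLR6 as a receptor for bacterial lipoproteins, and TLR4 is the receptor for lipopolysaccharide. TLR7 and TLR9 sense RNA and unmethylated CpG DNA inside endosomes, which they reach only with the chaperone UNC93B1, and all of these receptors signal through the adaptor MYD88. CD180, also called RP105, resembles TLR4 outside the cell but lacks the signalling domain that binds MYD88. It is carried to the surface by MD-1, the product of Ly86, and in B cells its ligation drives activation and proliferation.

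The values are mean coverage per gene, that is, read depth averaged along the gene's bases, so levels of different genes can be set beside each other per base. They were scaled so that libraries could be compared, and they are called scaled coverage below. How many reads stand behind a value is not known, so the errors given, SDs between the 4 libraries of a group and limma's standard errors and intervals, rest on the spread between libraries, and counting error is not given apart from it. The targeted gene Prps2 ran from 97.9 to 140 in WT, from 198.5 to 287 in Eμ-Myc and from 16.2 to 18.3 in the knockout group, and Myc was at 226 to 346, 1559 to 2302 and 1099 to 3282 in the same order. The B cell markers Cd79a, Ms4a1 and Pax5 were present in every group, with Cd79a at 1690 ± 521 (SD, n = 4) in WT, 1590 ± 171 with the transgene and 1350 ± 104 with transgene and deletion. Markers of other splenic cells were also present in every group. The knockout libraries fell apart from each other: libraries 3 and 4 lay below the other 10 libraries in 26% of 12956 genes and above them in 28.4%. The calls of the 10 genes, the ratios of gene pairs and the pathway counts of the knockout group are therefore given with and without them.

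In WT cells Unc93b1 had the highest level of the 10 genes, 1002 ± 227 (SD, n = 4), above 98.9% of the 17318 genes detected in WT. Ly86 and Cd180 followed at 347 ± 86.8 and 339.5 ± 147, above 95.6% and 95.5% of genes, and their ranges overlapped. Tlr1 at 197 ± 31.6, Tlr7 at 178 ± 31.2 and Myd88 at 122 ± 57.5 came next, each overlapping its neighbour in the order. Between Unc93b1 and Ly86 and between Myd88 and Tlr9 the WT libraries did not overlap. Tlr9 at 48.7 ± 26.2, Tlr2 at 31.5 ± 18.2 and Tlr6 at 21.9 ± 10.3 overlapped one another, and Tlr4, which overlapped Tlr6, was lowest at 12.3 ± 4.48, above 47.8% of genes. In Eμ-Myc the order was the same except that Tlr1 dropped from the fourth place to the sixth, behind Tlr7 at 82.1 ± 29.8 and Myd88 at 79.4 ± 18.7. The means over all 4 knockout libraries came in the order of Eμ-Myc, but the order differed between the libraries. In knockout libraries 1 and 2 the mean of Tlr1 (100.2) stood above that of Myd88 (97.2), and in libraries 3 and 4 Myd88 (59.8) stood above Tlr7 (19.3) and Tlr9 (9.99) just above Tlr1 (9.32). The plot of scaled coverage by library shows every value.

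**Figure D1:**
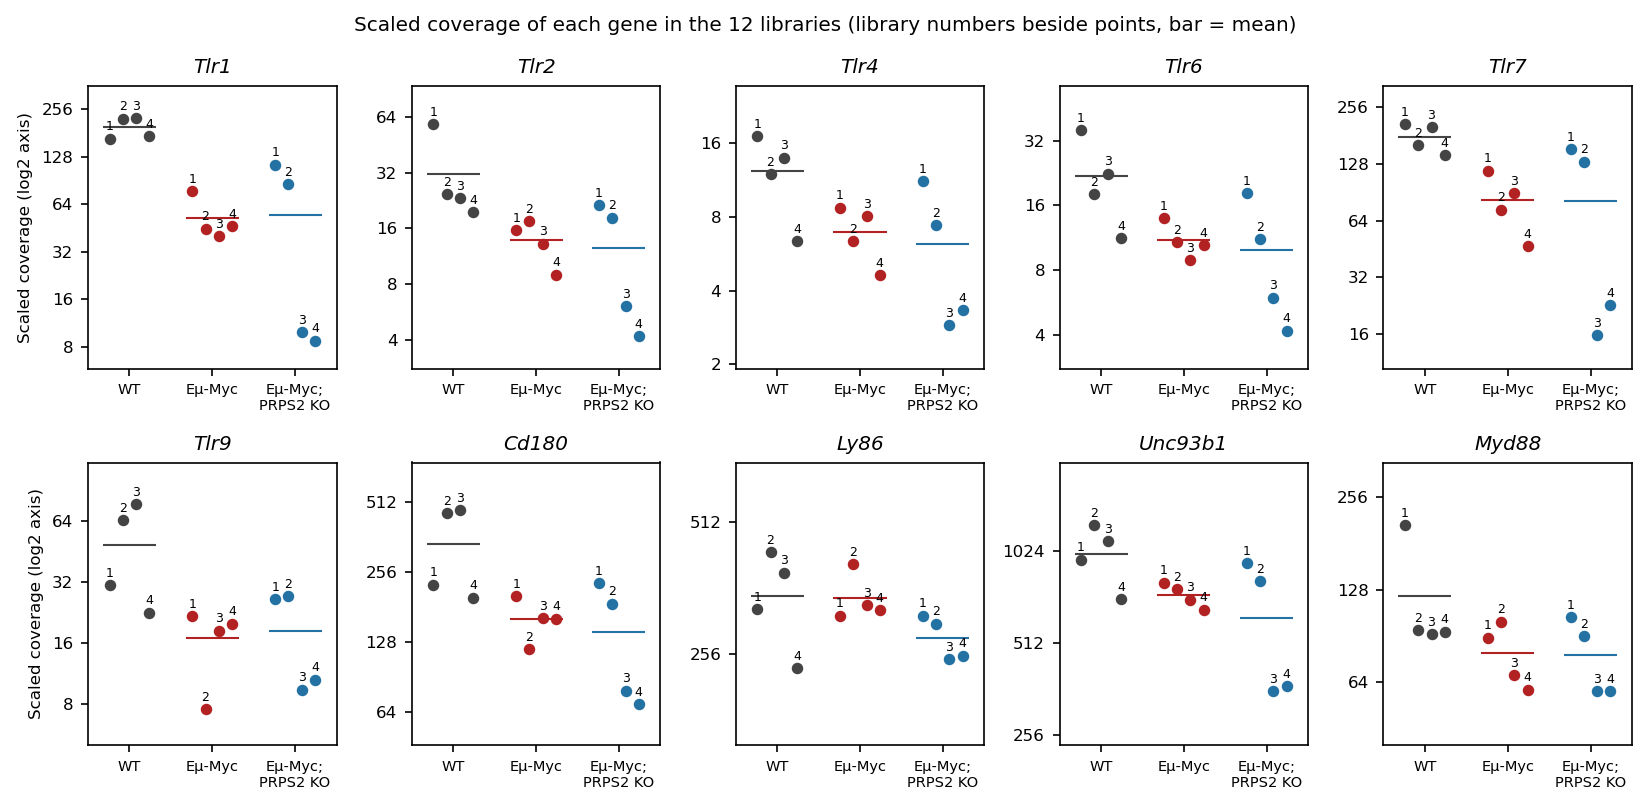
Scaled coverage (log2 axis) of the 10 genes in each of the 12 libraries. Points are libraries with their number, and the horizontal bar is the mean of the 4 libraries of a group; Tlr1 and Tlr7 in knockout libraries 3 and 4 lie far below knockout libraries 1 and 2.

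RefSeq start regions (GRCm38.p6, 250 bases before to 50 after each annotated start) were at hand for 7 of the 10 genes. The 250 bases before the start are shown for 4 of them, because Tlr1, Tlr9 and Cd180 were lower in Eμ-Myc and Ly86, the partner of Cd180, was not. Capitals mark matches to 6 motifs searched on both strands, which do not overlap here: CACGTG (the Myc E-box), CAGGTG (the E-box of E proteins), ATGCAAA (the octamer core), GAGGAAGT (PU.1), GGGA and TTCC with 2 bases of any kind between them (kappa B), and GAAA and GAAA with 2 bases of any kind between them (the interferon-stimulated response element). Positions count from the start, and the sequences lie on the minus strand at chr5:64933559-64933808 for Tlr1 and on the plus strand at chr9:106222348-106222597 for Tlr9, chr13:102693297-102693546 for Cd180 and chr13:37345095-37345344 for Ly86.
Tlr1: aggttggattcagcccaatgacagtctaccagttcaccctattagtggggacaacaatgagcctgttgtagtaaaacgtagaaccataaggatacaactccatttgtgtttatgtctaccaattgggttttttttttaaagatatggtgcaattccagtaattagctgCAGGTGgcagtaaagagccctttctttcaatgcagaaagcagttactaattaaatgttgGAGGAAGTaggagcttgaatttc
Tlr9: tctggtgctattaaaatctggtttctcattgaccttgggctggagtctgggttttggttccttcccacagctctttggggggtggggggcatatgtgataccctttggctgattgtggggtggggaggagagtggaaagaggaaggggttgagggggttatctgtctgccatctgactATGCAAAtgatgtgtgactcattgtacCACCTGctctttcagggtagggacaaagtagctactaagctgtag
Cd180: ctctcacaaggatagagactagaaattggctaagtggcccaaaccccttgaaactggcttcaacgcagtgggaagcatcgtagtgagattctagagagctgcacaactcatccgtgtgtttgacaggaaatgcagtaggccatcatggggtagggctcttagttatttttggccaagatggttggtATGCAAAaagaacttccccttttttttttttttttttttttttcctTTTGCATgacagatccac
Ly86: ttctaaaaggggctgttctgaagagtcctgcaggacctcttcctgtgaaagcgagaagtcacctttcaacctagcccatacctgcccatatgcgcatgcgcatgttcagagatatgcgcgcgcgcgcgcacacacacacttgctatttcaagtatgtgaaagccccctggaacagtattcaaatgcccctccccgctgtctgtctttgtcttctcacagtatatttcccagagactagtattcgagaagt

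The octamer core, the element bound by OCT-2, a factor found mainly in the B lineage, and by the widely expressed OCT-1, was found at -64 and, on the other strand, at -18 before Cd180 and at -72 before Tlr9. It is present in 4.63% of the 32851 start regions of the table. The PU.1 motif occurred at -23 before Tlr1 and, past the stretch shown, 10 bases past the start of Tlr9, against 3.2% of all start regions. CAGGTG was found for Tlr1, Tlr9 and Tlr2, against 20.2%, and the interferon element for Myd88 and Tlr6, against 3.44%. The Myc E-box was found only at the second annotated start of Tlr1, at -195, against 7.15% of all start regions. No start region of the 7 genes held the kappa B letters given above, against 1.47%, and that of Ly86 held none of the 6 motifs. A wider kappa B consensus, GGG, then A or G, 2 bases of any kind, 2 of C or T and CC, was searched after the sequences were seen. It was found only for Tlr2, at -173, -172 and -8, against 5.89% of all start regions. These matches describe letters in a window and say nothing of what is bound there, and the files do not tell which start was used.

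The first comparison asked what the Myc transgene changes in splenic B cells. Of the 10 genes 6 fell in Eμ-Myc (limma, Benjamini-Hochberg adjusted p under 0.05 over 12723 genes) and none rose. Over all genes 55.1% were called, 30.4% higher and 24.7% lower. Under total coverage scaling this balance turned, with fewer genes called higher than lower. The largest differences of the 10 were those of 4 receptors, with Tlr1 lower by 3.82-fold, Tlr9 by 2.70-fold, Tlr7 by 2.26-fold and Tlr2 by 2.08-fold. Cd180 followed at 1.98-fold, while Ly86 had nearly the same mean in both groups. The median log2 fold change of the 10 genes was -0.92, beside -0.009 over all genes tested. In bulk RNA, fewer cells of a type and less RNA per cell cannot be told apart.

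Tlr1, the partner of TLR2 for triacylated lipoproteins, was at 166, 223, 225 and 172 in WT libraries 1 to 4, at 77.7, 44.9, 40.4 and 46.7 in Eμ-Myc libraries 1 to 4, and at 114, 85.9, 9.88 and 8.76 in the knockout group. All 4 Eμ-Myc libraries lay below all 4 WT libraries, with Eμ-Myc library 1 the highest of its group. The log2 fold change was -1.93 (SE 0.21, limma adjusted p = 6.16e-05), with a 95% interval from -2.39 to -1.47. Of the 10 genes, 4 had WT and Eμ-Myc libraries that did not overlap, all lower in Eμ-Myc, against 22.8% of all genes in that direction.

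Tlr2, the shared receptor of the lipoprotein pairs, was at 58.5, 24.6, 23.3 and 19.6 in WT and at 15.7, 17.5, 13.3 and 9.01 in Eμ-Myc. The groups did not overlap, although WT library 1 stood far above the other three of its group. Its log2 fold change was -1.05 (SE 0.34, limma adjusted p = 0.0261). Tlr6, the partner for diacylated lipoproteins, was at 35.8, 18.0, 22.5 and 11.3 in WT and at 14.0, 10.8, 8.94 and 10.5 in Eμ-Myc. WT library 4 lay within the Eμ-Myc range, and the log2 fold change was -0.86 (SE 0.31, limma adjusted p = 0.0404). Tlr4 was low throughout, at 17.0, 11.9, 13.9 and 6.37 in WT and at 8.70, 6.37, 8.01 and 4.62 in Eμ-Myc. Its difference of -0.74 on the log2 scale (SE 0.30, limma adjusted p = 0.0627) did not pass, with a 95% interval from -1.43 to -0.06.

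Tlr1 and Tlr6 are neighbours on chromosome 5 (chr5:64924680-64933600 and chr5:64953092-64970942, GRCm38.p6) and near copies of each other in part. Their longest transcripts shared 454 windows of 50 bases, 15.3% of those of Tlr1 and 12.5% of those of Tlr6, and how reads that fit both were counted is not given in the sources used here. The other 8 genes shared no such window with another gene.

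Among the endosomal receptors, Tlr7, the sensor of single-stranded RNA, was at 208, 162, 201 and 143 in WT and at 118, 73.2, 89.7 and 47.1 in Eμ-Myc. The groups did not overlap, and the log2 fold change was -1.17 (SE 0.26, limma adjusted p = 0.00429). Tlr9, the sensor of CpG DNA, was at 30.8, 64.2, 77.3 and 22.6 in WT and at 21.7, 7.55, 18.4 and 19.9 in Eμ-Myc. WT libraries 2 and 3 were high, WT library 4 lay just above Eμ-Myc library 1, and Eμ-Myc library 2 was low. The log2 fold change of Tlr9 was -1.43 (SE 0.45, limma adjusted p = 0.0251).

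Unc93b1, which escorts both receptors from the endoplasmic reticulum to endosomes, was at 957, 1242, 1098 and 709 in WT and at 804, 764, 708 and 656 in Eμ-Myc. Its difference of -0.42 (SE 0.17, limma adjusted p = 0.0538) narrowly missed the threshold, with a 95% interval from -0.80 to -0.05. Myd88 was at 208, 94.3, 91.5 and 93.5 in WT and at 89.3, 101, 67.5 and 60.4 in Eμ-Myc. WT library 1 was far above the others of its group, the remaining WT libraries lay within the Eμ-Myc range, and the difference was -0.55 (SE 0.28, limma adjusted p = 0.129). Without WT library 1 it was -0.26 (limma adjusted p = 0.248).

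Cd180 was at 227, 458, 473 and 199 in WT and at 202, 119, 162 and 162 in Eμ-Myc. WT libraries 2 and 3 were high and WT library 4 fell within the Eμ-Myc range. The log2 fold change was -0.99 (SE 0.31, limma adjusted p = 0.0230), a 1.98-fold lower level. Ly86 was at 323, 437, 392 and 237 in WT and at 312, 409.6, 330.3 and 321 in Eμ-Myc. The groups overlapped almost entirely, and the log2 fold change was 0.01 (SE 0.19, limma adjusted p = 0.961, 95% interval -0.40 to 0.43). Its sign was negative under median-of-ratios scaling (-0.05) and total coverage scaling (-0.17). The exons of Cd180 overlapped those of Mast4 on the opposite strand over 182 of 4509 bases, and whether strand was used in counting is not given in the sources used here.

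**Figure D2:**
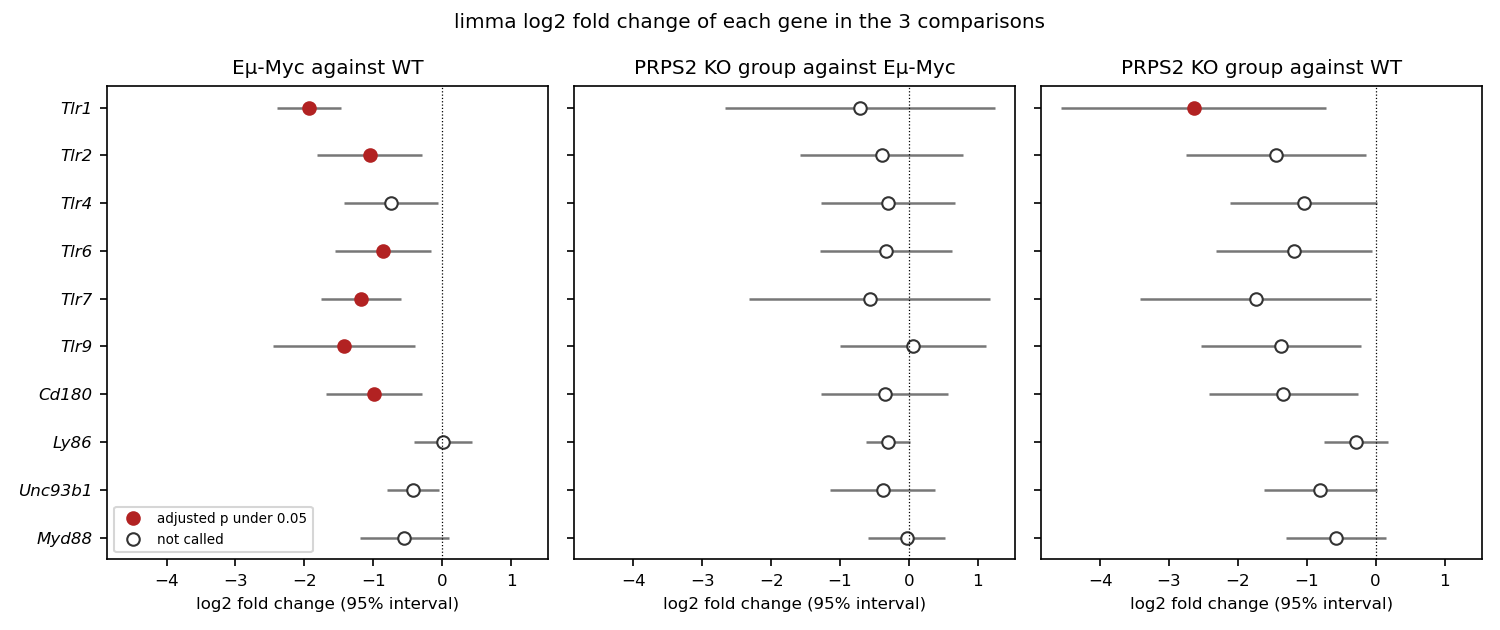
log2 fold changes of the 10 genes from limma (points) with 95% intervals (lines) in the 3 comparisons, with the dotted line at 0 and filled points for adjusted p under 0.05. Of the 10 genes, 6 are filled for Eμ-Myc against WT, 0 for the knockout group against Eμ-Myc and 1, Tlr1, for the knockout group against WT.

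How far these calls hold differed by gene. Tlr1 stayed called in all 17 alternatives (adjusted p from 4.15e-06 to 0.0497), and Tlr7 in 16 of 17, the exception being 1 fit over all 12 libraries (adjusted p = 0.153), where Tlr1 and Tlr9 alone were called. Tlr2 was lost without Eμ-Myc library 3 (-1.05, adjusted p = 0.0582) or 4 (-0.87, 0.0709). Tlr9 was lost without WT library 2 (-1.24, 0.0668) or 3 (-1.15, 0.0650) or Eμ-Myc library 2 (-1.09, 0.0557), and with the replicate number as a block. Cd180 was lost without WT library 2 (-0.80, 0.0577) or 3 (-0.79, 0.0563) or Eμ-Myc library 2 (-0.85, 0.0627) or 3 (-0.997, 0.0508). Tlr6 was the least firm: it was lost without WT library 1 (-0.58, 0.0786), 2 (-0.91, 0.0576) or 3 (-0.80, 0.0876), without Eμ-Myc library 2 (-0.85, 0.0794), 3 (-0.76, 0.101) or 4 (-0.84, 0.0823), and with no filter on low values (0.0522). In the other direction, Tlr4 and Unc93b1 were called without WT library 4 (-1.02, 0.00679, and -0.58, 0.00446), under both other scalings, with quality weights and with the replicate number as a block. Unc93b1 was also called with the filter of 10 in every library (0.0456). Myd88 was called under total coverage scaling (-0.73, 0.0410) and with quality weights (-0.55, 0.0244). All of these adjusted p-values are from limma.

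Pairs of related genes were compared by their ratio within a library, with 0.5 added to each scaled coverage. There were 12 exact two-sided permutation tests in all. TLR1 and TLR6 are alternative partners of TLR2, and their genes share windows of sequence, as given above. For Cd180 over Ly86 the log2 ratio was -0.51, 0.07, 0.27 and -0.25 in WT libraries 1 to 4 and -0.62, -1.78, -1.02 and -0.99 in Eμ-Myc. Every Eμ-Myc library lay below every WT library, and the difference of -0.998 had the smallest p that 4 against 4 libraries allow (exact permutation p = 0.0286, adjusted 0.137). For Tlr9 over Unc93b1 the groups were also apart, with a difference of -1.01 (exact permutation p = 0.0286, adjusted 0.137), which was -0.65 without Eμ-Myc library 2. For Tlr7 over Unc93b1 the difference was -0.75 and for Tlr1 over Tlr6 it was -1.08, each with overlapping groups (exact permutation p = 0.0571, adjusted 0.137). None of the 12 tests passed 0.05 after adjustment. With 0.0286 as the smallest possible p, none could pass unless many of the 12 reached it at once. The adjusted values therefore cannot decide whether a ratio differed.

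**Figure D3:**
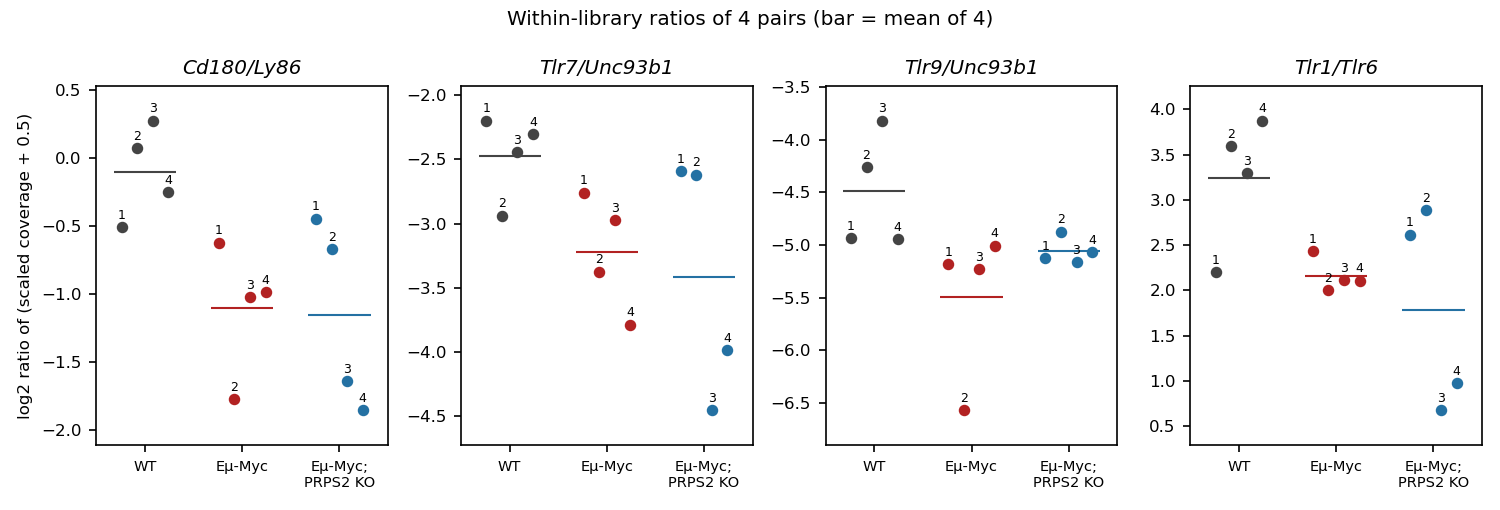
log2 ratio within each library for 4 pairs of genes, with 0.5 added to each scaled coverage (linear axis of log2 values, a separate range per panel). Points are libraries with their number and bars are means of 4; for Cd180 over Ly86 and for Tlr9 over Unc93b1 the WT and Eμ-Myc points do not overlap.

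Marker lists were read against the 30.4% of all genes called higher and the 24.7% called lower. All 9 mature follicular B cell markers tested fell in Eμ-Myc, with a summed scaled coverage of 4567 to 6628 in WT and 1739 to 2198 in Eμ-Myc. Fcer2a, the low-affinity IgE receptor of follicular B cells, went from 2430 ± 779 to 411 ± 165 (SD, n = 4), and Cr2, the complement receptor, from 137 ± 49.8 to 24.8 ± 12.3. Of the early B cell markers 6 of 10 rose and 1 fell, and their sum went from 498 to 798 in WT to 1395 to 2102 in Eμ-Myc. Of the B cell markers 2 of 10 fell and none rose, and their sum ran from 9345 to 17254 in WT and from 9784 to 12367 in Eμ-Myc. Within WT, the sum was highest in libraries 2 and 3 (17254 and 14518), as were Tlr1, Tlr9, Cd180, Ly86 and Unc93b1.

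Markers of other cells that are known to carry these receptors were measured in the same libraries. Of the dendritic cell markers 8 of 12 fell, and their sum was 289 to 355 in WT and 111 to 177 in Eμ-Myc. Siglech, a marker of plasmacytoid dendritic cells, which hold much TLR7 and TLR9, was at 34.4 ± 9.09 in WT and 7.44 ± 0.932 in Eμ-Myc. Of the monocyte and macrophage markers 1 of 12 fell, with sums of 4387 to 7450 and 1858 to 5462, and none of the 10 neutrophil markers was called, with sums of 6730 to 31153 and 6175 to 19724. WT library 1, in which Tlr2, Tlr4, Tlr6, Tlr7 and Myd88 were highest, also had the highest monocyte and macrophage sum (7450) and the highest neutrophil sum (31153). All 9 T cell and all 9 NK cell markers fell, with T cell sums of 514 to 2960 and 106 to 151 and NK cell sums of 418 to 1707 and 106 to 288. Of the marginal zone and B-1 markers 3 of 10 rose and 5 fell. Of the plasma cell markers 2 of 8 rose and 2 fell, of the platelet markers 2 of 7 fell and none rose, and none of the 8 erythroid markers tested was called. No list had a marker at 0 in all 4 libraries of any group. The part of these cells in the differences of the 10 genes was not tested.

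**Figure D4:**
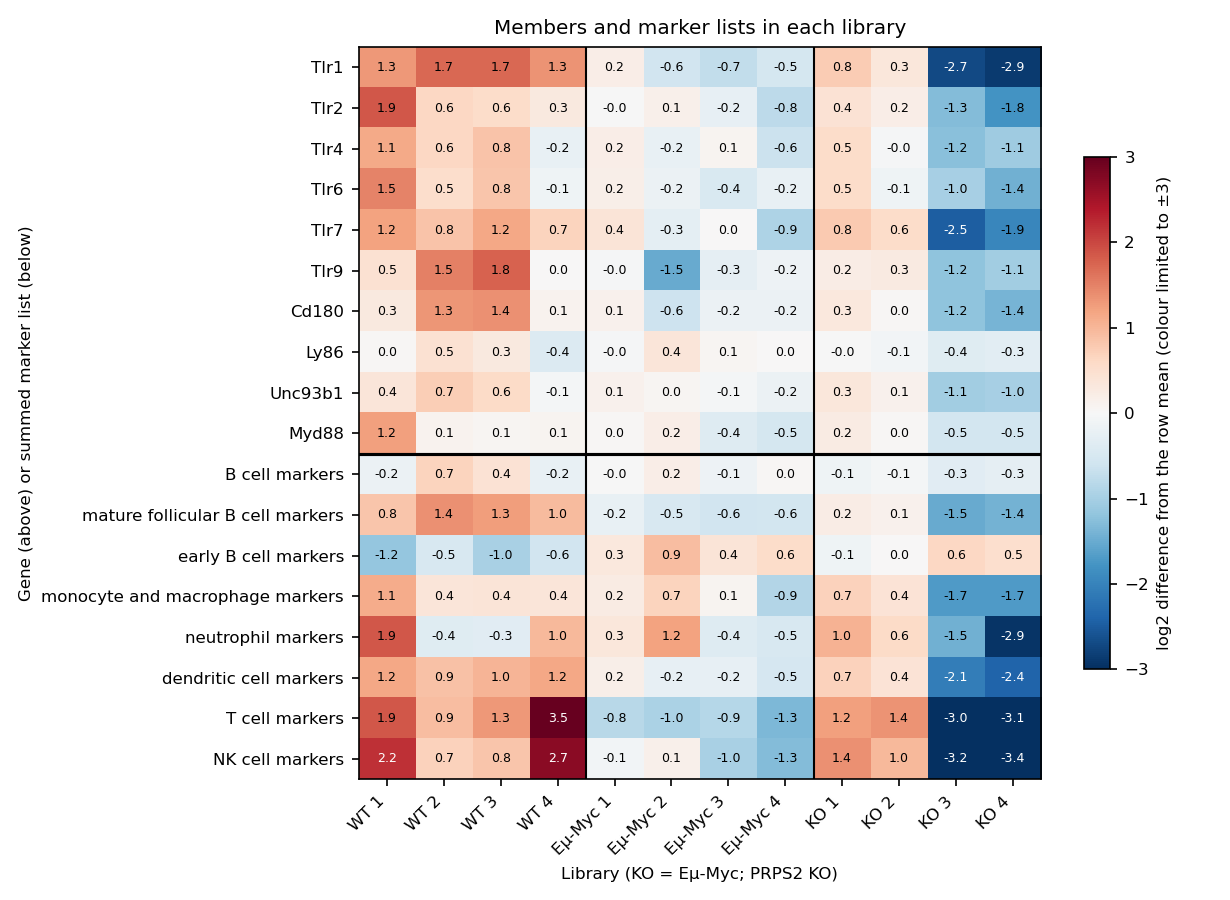
log2 difference of each library from the mean of its row, for the 10 genes (upper rows) and for the summed scaled coverage of 8 marker lists (lower rows), with the value in each cell and the colour limited to ±3. Knockout libraries 3 and 4 are low in most rows of both blocks, and WT libraries are high for the mature follicular list.

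The rest of the pathway was read from a list of 86 further genes, of which 85 were in the files and 81 were tested. Of these 40 fell and 4 rose in Eμ-Myc, which makes 54.3% called, near the 55.1% of all genes, with a median log2 fold change of -0.52. By role, the counts beside the 24.7% of all genes that were called lower were as follows. Of the feedback inhibitors 11 of 14 fell (median -0.99), and of the transcription factors 10 of 14 fell (median -0.95). Of the kinases and ubiquitin ligases 9 of 21 fell and 1 rose, of the adaptors 4 of 7 fell, of the genes for endosomal trafficking and processing 5 of 12 fell, and of the other receptors 1 of 5 fell. Of the receptor cofactors 3 of 8 rose, against 30.4% of all genes, and none fell, although 5 of the 8 estimates were below 0 (median -0.14).

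Downstream of the receptors, Irak2, a kinase that MYD88 recruits, fell from 99.1 ± 15.4 in WT to 27.8 ± 6.72 in Eμ-Myc (log2 fold change -1.83, SE 0.18, limma adjusted p = 3.42e-05), and the groups were far apart. Ikbke, a kinase of the interferon branch, fell by 1.90 on the log2 scale (SE 0.51, limma adjusted p = 0.0122), although its WT level of 41.4 ± 36.1 was very uneven. Ube2n, the ubiquitin-conjugating enzyme that works with TRAF6, rose from 27.6 ± 1.40 to 41.5 ± 2.05 (0.58, SE 0.10, limma adjusted p = 0.000767).

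Nfkb2, the precursor of the non-canonical NF-κB subunit, fell from 422.5 ± 80.7 to 132 ± 30.2 (-1.68, SE 0.19, limma adjusted p = 8.24e-05). Nfkbiz, an inducible NF-κB cofactor, fell by 1.75 on the log2 scale (SE 0.49, limma adjusted p = 0.0143), from 149 ± 99.8 to 39.0 ± 13.1. Inhibitors of these factors fell too. Tnfaip3, which encodes the ubiquitin-editing enzyme A20, went from 93.3 ± 36.7 to 28.7 ± 13.6 (-1.72, SE 0.35, limma adjusted p = 0.00301), and Nfkbie, an inhibitor that holds NF-κB in the cytoplasm, from 194 ± 47.7 to 74.9 ± 14.7 (-1.35, SE 0.20, limma adjusted p = 0.000381).

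Around the receptors themselves, Tlr12, a receptor for profilin of protozoa, was low and fell from 12.4 ± 2.62 to 5.73 ± 1.11 (-1.05, limma adjusted p = 0.00245). Ctss, a protease that cuts endosomal receptors into their active form, fell by 0.66 on the log2 scale (limma adjusted p = 0.00932), from 1847 ± 292 to 1177 ± 233, and the nucleoside transporter Slc29a3 fell by 0.66 (0.0336). Of the adaptors, Scimp, a scaffold at the receptor, fell by 1.22 (limma adjusted p = 0.000895), and Pik3ap1, the link from receptors to PI3-kinase, by 0.95 (0.0183). Among cofactors, Hsp90b1, the chaperone GP96 that folds most of these receptors, rose from 393 ± 26.3 to 606 ± 55.7 (0.62, limma adjusted p = 0.000708). Hmgb1, a nuclear protein that can act as a ligand once released, rose from 180 ± 8.74 to 537 ± 64.5 (1.57, limma adjusted p = 5.26e-06).

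**Figure D5:**
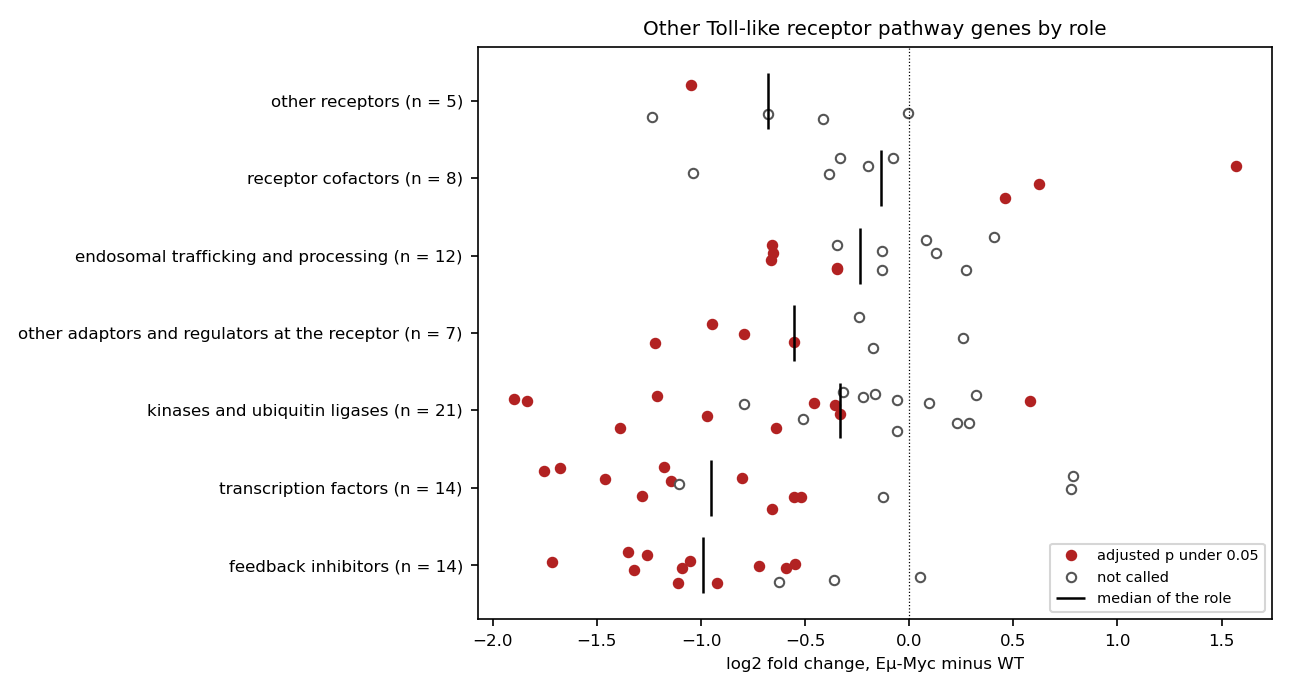
log2 fold change, Eμ-Myc minus WT, of the 81 tested genes of the wider pathway list by role. Filled points have an adjusted p under 0.05, vertical bars are the median of a role, and the vertical scatter within a role only separates the points; the medians of the transcription factors and feedback inhibitors lie furthest to the left.

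The second comparison asked what the loss of PRPS2 changes in Eμ-Myc B cells. None of the 10 genes was called (limma, adjusted p = 0.9999 for each), and none had an unadjusted p under 0.05. Over all 12551 genes tested 0.00797% were called, a single gene, Prps2, and 0.964% had an unadjusted p under 0.05. None of the 10 genes had groups that did not overlap, against 1.53% of all genes. The median log2 fold change of the 10 genes was -0.34, beside -0.029 over all genes.

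The 4 knockout libraries split, and the intervals were wide. Tlr1 was at 114 and 85.9 in knockout libraries 1 and 2, above all 4 Eμ-Myc libraries, and at 9.88 and 8.76 in knockout libraries 3 and 4, the lowest of all 12. Tlr7 had the same shape, with 154 and 132 against 15.8 and 22.9. Their log2 fold changes were -0.71 (95% interval -2.68 to 1.25) and -0.57 (-2.32 to 1.18). The lower of libraries 1 and 2 was 8.69 times the higher of libraries 3 and 4 for Tlr1 and 5.78 times for Tlr7.

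For Cd180 the knockout libraries were at 229, 187.5, 79.3 and 69.6, and the log2 fold change was -0.35 (95% interval -1.28 to 0.57). Unc93b1 was at 934, 814, 356 and 369, and Tlr2 at 21.4, 18.3, 6.11 and 4.22. Tlr6 at 18.3, 11.2, 5.99 and 4.22 and Tlr4 at 11.2, 7.36, 2.89 and 3.33 split in the same way. Tlr9 was at 26.3, 27.3, 9.44 and 10.5, and here Eμ-Myc library 2 (7.55) remained the lowest of all. Myd88 at 104, 90.2, 59.8 and 59.8 and Ly86 at 313, 299, 248 and 253 were closest together, and Ly86 had the narrowest interval, from -0.62 to 0.02 (log2 fold change -0.30, SE 0.14).

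Knockout libraries 3 and 4 were thus below the other 10 libraries in 8 of the 10 genes, all but Tlr9 and Ly86, against 26% of all genes. Knockout libraries 1 and 2 were above all 4 Eμ-Myc libraries in 5 of the 10, namely Tlr1, Tlr2, Tlr7, Tlr9 and Unc93b1, against 22.4% of all genes. The same libraries differed in their marker lists. The mature follicular sum was 3012, 2816, 904 and 959 in knockout libraries 1 to 4, with Fcer2a at its lowest at 2.66 and Cr2 at 0.111. The monocyte and macrophage sum was 5551, 4554, 1055 and 1060, and the dendritic cell sum ran from 29.5 to 255, the T cell sum from 30.5 to 689 and the NK cell sum from 24.6 to 674. The neutrophil sum was 17703, 12705, 3143 and 1113. The B cell sum differed less, at 9864, 10303, 8602 and 9020, and Prps2 was at 16.2 to 18.3. Myc split the other way, at 1099 and 1718 in knockout libraries 1 and 2 and at 3017 and 3282 in libraries 3 and 4, which lay above all 4 Eμ-Myc libraries (1559 to 2302). The part of Myc and of these markers in the split was not tested.

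Leaving out knockout libraries in pairs, a choice made after the split was seen, changed the result. Without libraries 1 and 2, 8 of the 10 genes were called lower than in Eμ-Myc, with Tlr1 at -2.38 (limma adjusted p = 0.00147), Tlr7 at -2.01 (0.00797), Unc93b1 at -1.01 (0.00193) and Cd180 at -1.09 (0.00969). Of all genes 28.7% were then called, 16.4% lower. Without libraries 3 and 4 none was called, against 4.21% of all genes, and 9 of the 10 estimates were above 0, with Tlr1 at 0.96 (limma adjusted p = 0.0624), Tlr7 at 0.87 (0.118) and Ly86 alone below 0 at -0.16 (0.467). Library quality weights, which gave knockout library 4 a weight of 7.76 and library 1 a weight of 0.0817, called 9 of the 10 genes lower, against 59.4% of all genes called and 28.3% called lower.

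In the wider pathway none of the 80 genes tested was called or had an unadjusted p under 0.05 by limma, and their median was -0.10. Scimp had the largest drop among the genes named above, -1.14 (SE 0.78), and Tnfaip3 followed at -0.98 (SE 1.15), neither of them called. The knockout libraries of Tnfaip3 had a mean of 34.2 ± 38.4 (SD, n = 4), an SD larger than the mean. Without knockout libraries 3 and 4, Scimp was at 0.35 (limma adjusted p = 0.427) and Tnfaip3 at 1.26 (0.0846), and 2 of the 80 genes were called, both higher, near the 2.26% of all genes called higher in that fit: Ikbke (1.72, 0.0140) and Peli1, a ubiquitin ligase (0.66, 0.0440). In the pair ratios the difference between the knockout group and Eμ-Myc was -0.05 for Cd180 over Ly86 (exact permutation p = 0.914), -0.19 for Tlr7 over Unc93b1 (exact permutation p = 0.743), 0.44 for Tlr9 over Unc93b1 (exact permutation p = 0.229) and -0.38 for Tlr1 over Tlr6 (exact permutation p = 0.457). Within the knockout group the ratio of Tlr9 to Unc93b1 was nearly constant, at -5.12, -4.87, -5.17 and -5.07, while both genes split between libraries. From knockout libraries 1 and 2 alone, with no test, all 4 differences from Eμ-Myc were above 0, at 0.54 for Cd180 over Ly86, 0.62 for Tlr7 over Unc93b1, 0.50 for Tlr9 over Unc93b1 and 0.58 for Tlr1 over Tlr6.

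The third comparison set the knockout group beside WT and shares its libraries with the other two. Tlr1 was the 1 gene of the 10 that was called, lower in the knockout group by 6.25-fold (log2 fold change -2.64, SE 0.84, limma adjusted p = 0.0477), against 29.3% of all 12692 genes called and 9.6% called lower. It was also the 1 gene whose groups did not overlap, against 14.9% of all genes in that direction. All 10 estimates were below 0, with a median of -1.26 beside -0.015 over all genes, and 6 had an unadjusted p under 0.05, against 50% of all genes.

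With all 4 knockout libraries Tlr7 had the second largest estimate, -1.74 (SE 0.73, limma adjusted p = 0.0921), and knockout library 1 (154) lay within the WT range of 143 to 208. Tlr2 followed at -1.45 (limma adjusted p = 0.0776), Tlr9 at -1.37 (0.0678) and Cd180 at -1.34 (0.0611). Tlr6 was at -1.19 (limma adjusted p = 0.0886) and Tlr4 at -1.05 (0.104). Unc93b1 at -0.80 (limma adjusted p = 0.106), Myd88 at -0.58 (0.165) and Ly86 at -0.29 (0.259) had the smallest estimates. With 1 library left out, Myd88 ran from -0.73 to -0.29 and Ly86 from -0.46 to -0.17. Side by side, and sharing the WT libraries, the estimates for Tlr1 were -1.93 for Eμ-Myc and -2.64 for the knockout group, those for Cd180 -0.99 and -1.34, and those for Ly86 0.01 and -0.29.

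The call of Tlr1 was lost without any 1 of the WT libraries (log2 fold change -2.72, -2.58, -2.57 and -2.70 without libraries 1 to 4, limma adjusted p from 0.0888 to 0.105), without knockout library 3 (-2.11, 0.122) or 4 (-2.06, 0.118), and with no filter (0.0579). The replicate number as a block also ended this call, and Tlr2 and Tlr6 were called instead. Without knockout library 1, 8 of the 10 genes were called lower, against 53.2% of all genes called and 23.5% called lower. Without libraries 1 and 2 together 9 were called lower, all but Ly86, against 70.1% and 34.4%. Without libraries 3 and 4, Tlr1 was the only call, at -0.97 (limma adjusted p = 0.0216), against 10.6% and 2.37%. The order of the estimates then changed, with Tlr9 at -0.68, Cd180 at -0.60, Tlr2 at -0.52, Tlr6 at -0.48 and Tlr4 at -0.34. Tlr7 was at -0.30, Myd88 at -0.23, Unc93b1 at -0.17 and Ly86 at -0.15.

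In the pair ratios against WT, Cd180 over Ly86 was lower by 1.05 in the knockout group, with knockout library 1 (-0.45) inside the WT range (exact permutation p = 0.0571, adjusted 0.137). The differences of the other pairs were -0.94 for Tlr7 over Unc93b1 (exact permutation p = 0.143), -0.57 for Tlr9 over Unc93b1 (exact permutation p = 0.0857) and -1.45 for Tlr1 over Tlr6 (exact permutation p = 0.114). From knockout libraries 1 and 2 alone, with no test, the differences were smaller, at -0.46 for Cd180 over Ly86, -0.13 for Tlr7 over Unc93b1, -0.51 for Tlr9 over Unc93b1 and -0.49 for Tlr1 over Tlr6. Of 83 genes of the wider pathway 11 were lower and 3 higher, which makes 16.9% called, against 29.3% of all genes called and 9.6% called lower. The 3 that rose were Hmgb1 (1.51, limma adjusted p = 0.0170), Hsp90b1 (0.59, 0.0215) and Ube2n (0.54, 0.0473), and among those that fell were Irak2 (-2.47, 0.0471), Nfkbie (-1.96, 0.0386) and Scimp (-2.36, 0.0496). Without knockout libraries 3 and 4, 5 of the 83 were lower and 1 higher, against 10.6% of all genes called and 2.37% called lower. Hmgb1 (0.94, limma adjusted p = 0.00869) and Irak2 (-0.92, 0.0294) were among these, and Hsp90b1 (0.47, 0.0739), Ube2n (0.27, 0.255), Nfkbie (-0.87, 0.0528) and Scimp (-0.87, 0.0563) were not.

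The genes whose levels over the 12 libraries were most like those of a member were found by the mean absolute difference of log2 values, each centred on its own mean, among 9652 genes. This is a description: the libraries fall into the same 3 groups for every gene. Closest to Cd180 was Ciita (0.0992), the regulator that turns on MHC class II genes, whose mean was 505 ± 180.5 (SD, n = 4) in WT, 235 ± 59.4 in Eμ-Myc and 235 ± 135 among the knockout libraries. Kmo, an enzyme of tryptophan breakdown (0.137), and Nxpe2 (0.144) followed. Of the other members, Tlr9 ranked 29 (0.227) and Unc93b1 73 (0.259) for Cd180, whereas Ly86 ranked 2959 (0.558).

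Closest to Tlr9 were Ciita (0.201), Cd180 itself (0.227) and Il5ra, a chain of the interleukin-5 receptor (0.237). Closest to Tlr7 were Slfn5 (0.141), Sulf2, a sulfatase of heparan sulfate (0.167), and Pira4 (0.186), which belongs to a family of near-identical receptor genes, so that its value is uncertain. Closest to Ly86 were Lyl1, a basic helix-loop-helix factor of blood cells (0.0717), Dbnl, an actin-binding adaptor (0.0929), and Mgat1, an enzyme of N-glycan synthesis (0.095). The mean of Lyl1 was 180 ± 48.6 in WT, 161 ± 29.9 in Eμ-Myc and 132 ± 16.5 among the knockout libraries, a narrow range like that of Ly86 (347 ± 86.8, 343 ± 44.8 and 278 ± 32.4).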

How the data were processed

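Per the labels, RNA from isolated splenic B lymphocytes was selected for poly(A) and made into strand-specific libraries. The authors deposited 1 table per library with a gene symbol and its mean coverage, a signal with 1 decimal. Of the values above 0, 91.6% had a decimal other than 0, so no count model was used. The submitters' processing notes name the build mm10, R 4.3.3 and DESeq, the last with no version. The aligner and the counting rule are not given in the sources used here, and the reads behind a value are unknown. Summed coverage per library ran from 1277305.5 to 1885768.9.

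Groups follow the labelled genotype. Scaling used an unweighted trimmed mean of log ratios (30% of ratios and 5% of means trimmed at each end). Genes that reached a scaled coverage of 1 in 4 or more of a comparison's 8 libraries were fitted with limma 3.58.1 in R 4.3.3 (trended, robust, two-sided) on log2(scaled coverage + 0.5), a scale that understates the change of low genes. A gene was called where its p, adjusted after Benjamini and Hochberg over every gene fitted, was under 0.05. The method was tested on simulated data. Pair ratios used scipy 1.17.1, and figures matplotlib 3.10.9, with Python 3.11.15, numpy 2.4.6 and pandas 2.3.3.

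The members, gene lists, tests and most alternatives were chosen with earlier results of these data known. Pathway genes were named by a rule: up to 2 of the largest rises and 2 of the largest falls per role among called genes with mean scaled coverage of at least 8. The same genes are named in the other comparisons. Start regions are RefSeq's, on GRCm38.p6. Of the listed symbols, Tasl, Ighd and Trbc2 were not matched in the files. The marker lists were B cell, early B cell, mature follicular, marginal zone and B-1, plasma cell, monocyte and macrophage, neutrophil, dendritic cell, T cell, NK cell, erythroid and platelet.

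Same-numbered libraries of the knockout group and Eμ-Myc deviated together from their group means (r across genes of 0.657, 0.192, 0.253 and 0.607), so the numbers may pair these libraries. The main fits and the permutation tests of that comparison did not use this pairing. This pairing rests on the values, and 4 of the 24 possible matchings met the same condition. In the comparisons with WT not every pair did. A fit with the numbers as a block was an alternative in all 3 comparisons.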

Additional observations from a re-analysis of the deposited data

Results flagged for a closer look

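In 60 groups of 4 libraries, 5 held a library far from the other three, and chance gives about 1 in 20. Tlr1 in Eμ-Myc library 1 was at 77.7, against 40.4 to 46.7 in the others. Tlr2 in WT library 1 was at 58.5, against 19.6 to 24.6. Myd88 in WT library 1 was at 208, against 91.5 to 94.3. The summed monocyte and macrophage markers in the same WT library were at 7450, against 4387 to 4467. The log2 ratio of Tlr9 to Unc93b1 in Eμ-Myc library 2 was -6.57, against -5.23 to -5.01.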

How the results depend on the processing

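In Eμ-Myc against WT, 6 of the 10 genes, 44 pathway genes and 7016 genes in all were called. Other scalings, pseudocounts, no filter, the replicate block and quality weights gave 5 to 9 of the 10 genes, the filter of 10 in every library 4 of the 6 genes it left, and 1 fit over all 12 libraries gave 2 genes, 28 pathway genes and 5460 genes in all, 42.9% of those tested rather than 55.1%. Over all genes, median-of-ratios scaling called 55.8%, total coverage scaling 57.4%, each other pseudocount 55% and no filter 40%. The replicate block called 56.5% of all genes and the filter of 10 in every library 59.3%. Quality weights called 69.2%, with 32.8% lower. Leaving out 1 library gave 3 to 8 genes, 37 to 46 pathway genes and 5770 to 6857 genes in all. Total coverage scaling moved the median of all genes by -0.18 here and by -0.15 for the knockout group against WT, and in the first comparison 42.0% rather than 55.2% of called genes were then higher. The estimate of Ly86, 0.01, was -0.049 under median-of-ratios scaling, -0.17 under total coverage scaling, -0.20 with quality weights, and from -0.16 to 0.13 with 1 library left out.

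For the knockout group against Eμ-Myc, 0 of the 10 genes, 0 pathway genes and 1 gene in all were called, also with 1 library left out and with the replicate block. Quality weights called 9, 54 and 7459, leaving out knockout libraries 1 and 2 called 8, 38 and 3495, and leaving out libraries 3 and 4 called 0, 2 and 524. The estimate of Tlr9 was -0.81 with quality weights, -0.63 without libraries 1 and 2, and from -0.27 to 0.32 with 1 library left out, and that of Myd88 from -0.18 to 0.093 likewise. Without libraries 3 and 4 the estimates turned positive, at 0.96 for Tlr1, 0.54 for Tlr2, 0.40 for Tlr4, 0.38 for Tlr6, 0.87 for Tlr7, 0.38 for Cd180, 0.25 for Unc93b1 and 0.32 for Myd88.

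For the knockout group against WT, 1 of the 10 genes, 14 pathway genes and 3716 genes in all were called. A fit over all 12 libraries together called 7, 38 and 5975, quality weights 10, 66 and 10505, and the replicate block 2, 4 and 1863. Without libraries 1 and 2 the counts were 9, 54 and 8617, and without libraries 3 and 4 they were 1, 6 and 1323. No filter gave 0 and 5 of the 10 genes and the pathway, the filter of 10 in every library 22 pathway genes and median-of-ratios scaling 25. Over all genes, no filter called 17.2%, the filter of 10 in every library 38.9% and median-of-ratios scaling 29.9%. The share of all genes was 47.1% in the fit over all 12 libraries, 82.8% with quality weights and 14.7% with the replicate block. With 1 library left out, 0 to 8 of the 10 genes, 0 to 41 pathway genes and 600 to 6633 genes were called, the highest counts without knockout library 1. The cause of these changes was not tested. With 4 libraries a group and no read counts, no smaller error than the spread between libraries can be given.

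The libraries of a comparison with WT share only a replicate number: same-numbered libraries correlated across genes at 0.23, -0.0972, 0.264 and 0.135 for Eμ-Myc and at 0.398, -0.423, 0.137 and -0.064 for the knockout group, and in each comparison 1 of the 4 pairs held libraries that each correlated best with its own number. With the number as a replicate block, 7 of the 10 genes and 48 pathway genes were called for Eμ-Myc against WT, where Tlr4 (limma adjusted p = 0.00881) and Unc93b1 (0.0250) were added and Tlr9 (0.0529) was not called. Without the block 55.1% of all genes were called in that comparison, and the share with it is not given here. For the knockout group against WT, Tlr2 (0.0450) and Tlr6 (0.0432) were called and Tlr1 (0.0612) was not. The block changed no other call of the 10 genes.

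With 1 library left out, the pair ratio differences of Eμ-Myc against WT ran from -1.16 to -0.77 for Cd180 over Ly86, from -0.91 to -0.56 for Tlr7 over Unc93b1, from -1.17 to -0.65 for Tlr9 over Unc93b1 and from -1.42 to -0.87 for Tlr1 over Tlr6. Those of the knockout group against Eμ-Myc changed sign for Cd180 over Ly86 (-0.29 to 0.18) and Tlr7 over Unc93b1 (-0.46 to 0.16), and that of Tlr9 over Unc93b1 was 0.082 without Eμ-Myc library 2. In the same comparison that of Tlr1 over Tlr6 ran from -0.74 to -0.007. The differences of the knockout group against WT kept their sign, with Tlr7 over Unc93b1 at -0.59 without knockout library 3 and Tlr9 over Unc93b1 at -0.34 without WT library 3.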
